A study of Arabidopsis thaliana with 4 samples.

Results

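Arabidopsis thaliana carries a small family of acid phosphatase genes of the haloacid dehalogenase (HAD) superfamily whose best known members encode the vegetative storage proteins VSP1 and VSP2. Of 9 such loci, 7 had a probe set that the platform annotation pairs with exactly 1 gene, out of 13286 genes measured that way in the series: AT5G44020, AT1G04040, AT4G29260, AT4G29270, AT4G25150, AT5G51260 and AT2G38600. VSP1 (AT5G24780) and VSP2 (AT5G24770) had none and were not analysed here. The family was chosen by its annotation together with measured values, namely the very low signals of AT5G44020 and AT1G04040 at 4 °C against 22 °C, so the values of those 2 genes in that comparison are given as a description, with no p.

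The arrays came from seeds of the Ler-0 accession (Landsberg erecta, stock code NW20) that spent 96 h in darkness, either at 22 °C or at 4 °C. Each temperature had 2 Affymetrix arrays of total RNA, called warm A and warm B at 22 °C and cold A and cold B at 4 °C after the letters in their titles. The stage is labelled as dry seeds for all 4 samples, no genotype, transgene or further agent is named, and the labels do not say whether the arrays of a temperature came from separate seed batches, so p-values here reflect the spread among these 4 samples and that spread may be technical. In whole seeds, fewer cells that express a gene and less transcript per cell cannot be told apart.

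HAD phosphatases use an aspartate in a conserved motif to take up a phosphate group from their substrate and release it to water. VSP1 and VSP2 are known as vacuolar proteins that accumulate in leaves and flowers, as standard reporters of jasmonate signalling after wounding, and, for VSP2, as an acid phosphatase that slows insect growth. The other members are annotated as acid phosphatases of the same subfamily, and a substrate in seeds is not established for them.

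Signals are MAS5 intensities, each array multiplied so that its trimmed mean was 500. Changes are differences of log2(signal + 32), 4 °C minus 22 °C, which understates the change of weak signals. All 7 probe sets carry the plain suffix "_at", without the marks used for probe sets shared between transcripts, and each gene had 1 probe set. The median signal of an array, over 22746 probe sets that are not controls, was 156.7 on warm A, 203.7 on warm B, 135.5 on cold A and 139.7 on cold B.

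Seeds at 4 °C had almost no signal of AT5G44020 and AT1G04040, both of which were strong at 22 °C. AT4G29270 was lower on both 4 °C arrays, without passing the test, while the temperatures overlapped for its direct neighbour AT4G29260 and for AT5G51260. AT4G25150 and AT2G38600 were weak on every array. The log2 changes of the 7 genes ran from -5.57 to 0.11.

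AT5G44020 had signals of 976.5 on warm A, 9007 on warm B, 33.9 on cold A and 29.4 on cold B. Both cold arrays agreed closely and lay below the lower quartile of their arrays, which was 37.5 on A and 38.9 on B, whereas the warm arrays differed by a factor of 9.22. The weaker warm signal was 28.8 times the stronger cold one, a description since the gene was chosen for its low cold signal. The log2 change was -5.57 ± 0.92 (SE, n = 2 arrays at each temperature), the 14th lowest of 15847 probe sets tested.

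AT1G04040 had signals of 660.5 on warm A, 4222 on warm B, 11.8 on cold A and 10.3 on cold B. It showed the same shape, with warm array B 6.39 times warm array A and cold arrays near the bottom of the scale. Its weaker warm signal was 55.9 times the stronger cold one. The log2 change was -5.32 ± 0.79 (SE, n = 2 at each temperature), the 19th lowest.

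No detection calls were used here, and cold signals this weak may be background, so the size of both changes depends on the pseudocount. The log2 change of AT5G44020 was -6.55 with a pseudocount of 0 and -4.57 with a pseudocount of 100. For AT1G04040 these values were -7.24 and -4.03, which reverses the order of the 2 genes at a pseudocount of 0. Without warm A the changes were -7.15 for AT5G44020 and -6.63 for AT1G04040. Without warm B they were -3.99 and -4.01.

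**Figure D1:**
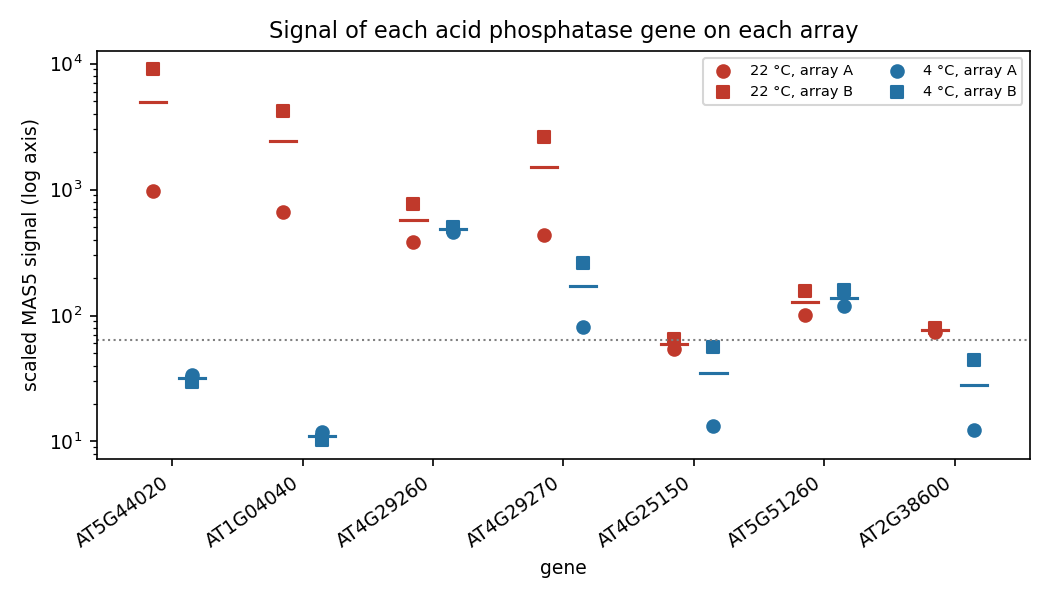
Scaled MAS5 signal (log axis) of the 7 acid phosphatase genes on each of the 4 arrays, with 22 °C in red, 4 °C in blue, array A as circles, array B as squares and the mean of each temperature as a short line. The dotted line marks the minimum mean signal of 64 for testing. AT5G44020 and AT1G04040 lie at 660.5 or more on both 22 °C arrays and at 33.9 or less on both 4 °C arrays, while AT4G29260 and AT5G51260 overlap between temperatures.

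AT4G29270 had signals of 435.5 on warm A, 2595 on warm B, 81.1 on cold A and 261.9 on cold B. Both cold arrays lay below both warm ones, but the gap was narrow: the weaker warm signal was 1.66 times the stronger cold one, against a factor of 5.96 between the warm arrays and of 3.23 between the cold ones. The log2 change of -2.60 ± 0.85 (SE, n = 2 at each temperature) did not pass in the limma fit over all probe sets (adjusted p = 0.109). It was -3.85 without warm A (adjusted p = 9.61e-05) and -1.36 without warm B (adjusted p = 0.0383), settings in which the spread came from the closer 4 °C pair alone. Without cold A or B it was -1.92 or -3.29, and did not pass.

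AT4G29260 is the gene next to AT4G29270 among protein-coding genes in the RefSeq order. It had signals of 382.7 on warm A, 769.3 on warm B, 457.4 on cold A and 506.6 on cold B, so both cold values lay between the warm ones. Its log2 change was -0.17 ± 0.50 (SE, n = 2 at each temperature; limma adjusted p = 0.872), which is smaller than the difference between its warm arrays. The sign of so small a change was not stable: it was 0.15 after median centring and 0.31 without warm B.

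The neighbours AT4G29270 and AT4G29260 were compared within each array, where a scaling factor largely cancels. The log2 ratio of the first over the second was 0.17 on warm A, 1.71 on warm B, -2.11 on cold A and -0.87 on cold B. Relative to its neighbour, AT4G29270 was thus lower on both 4 °C arrays than on either 22 °C array, with a mean difference of -2.44. With 2 arrays against 2, the exact permutation test (two-sided) gave p = 0.333, the smallest value it can give. The same ratio of AT5G44020 over AT1G04040 was 0.54 on warm A, 1.09 on warm B, 0.59 on cold A and 0.54 on cold B, so the temperatures overlapped. The mean difference was -0.25, a description since these 2 genes were chosen for their change, and it became 0.69 with a pseudocount of 0 and -0.54 with a pseudocount of 100. The 2 pairs were the only ones compared, and 1 was tested.

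AT5G51260 had signals of 100.1 on warm A, 156.3 on warm B, 118.7 on cold A and 159.1 on cold B. The temperatures overlapped, and array B was the higher one at both. Its log2 change was 0.11 ± 0.47 (SE, n = 2 at each temperature; limma adjusted p = 0.919). It turned to -0.15 without warm A and to -0.07 without cold B, and was 0.42 after median centring and 0.425 after quantile normalization.

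AT4G25150 and AT2G38600 had mean signals below 64 and were not tested. AT4G25150 had 54.6 on warm A, 64.5 on warm B, 13.2 on cold A and 56.7 on cold B. Its temperatures overlapped, and the spread was mainly between the cold arrays. AT2G38600 had 74.3 on warm A, 79.3 on warm B, 12.4 on cold A and 44.2 on cold B. Here the warm arrays agreed, both cold arrays were lower, and the weaker warm signal was 1.68 times the stronger cold one. The log2 changes of AT4G25150 and AT2G38600 were -0.53 and -0.90, values that a pseudocount of 32 compresses strongly at such signals: with a pseudocount of 0 they were -1.12 and -1.71.

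**Figure D2:**
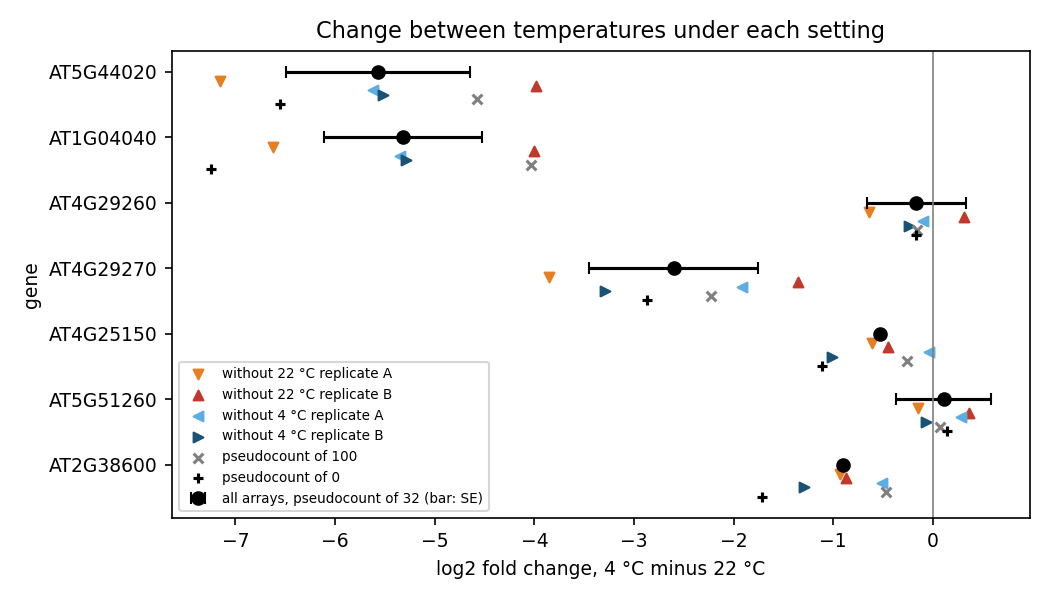
Log2 fold change (4 °C minus 22 °C) of the 7 genes. Black circles use all 4 arrays and a pseudocount of 32, with bars for the SE of the 5 tested genes, and small symbols leave out 1 array or change the pseudocount. AT5G44020 and AT1G04040 stay below -3.9 in every setting drawn, AT4G29270 runs from -3.85 to -1.36, and AT4G29260 and AT5G51260 fall on both sides of 0.

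Of the 5 genes tested, 2 were called at a limma adjusted p of 0.05, both lower at 4 °C, beside 5.05% of all 15847 probe sets tested (2.34% called lower and 2.71% called higher). Those 2 were AT5G44020 and AT1G04040, the genes whose values led to the choice of the family, so nothing is read from this count. The count was 0 when either 4 °C array was left out, when no filter on low signal was used, or with a pseudocount of 100. Of the other 3 tested, 0 passed in the limma test and 1, AT4G29270, had an unadjusted p under 0.05. The share of all probe sets under that unadjusted p was not counted, but it is at least the 5.05% called. Nothing is therefore read from this count or from such counts below. By plain order of the signals, 2 of the 5 members whose values did not choose the family (AT4G29270 and AT2G38600) had both 4 °C arrays below both 22 °C arrays, 3 overlapped and 0 had both above. Over all 22746 probe sets, 28.9% had both 4 °C arrays below and 21.9% both above. The median log2 change of those 5 members was -0.53, beside -0.11 over all probe sets, and -0.90 for all 7 genes measured. Median centring shifted the median of all probe sets by 0.314 and quantile normalization by 0.158, and the changes above are to be read against those shifts. The split of all calls was 430 higher and 371 lower, and 1045 higher and 575 lower after median centring.

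The arrays of 1 temperature also differed in these genes. The warm signals of AT5G44020 and AT1G04040 were part of the choice of the family, so their warm differences are given as a description. All 7 genes were higher on warm B than on warm A, beside 51.2% of all probe sets. At 4 °C 5 of the 7 were higher on B than on A, beside 52.6% of all probe sets, and the exceptions were AT5G44020 and AT1G04040. The 3 genes that differed most between the warm arrays were AT5G44020, AT1G04040 and AT4G29270, with log2 differences (B minus A) of 3.16, 2.62 and 2.49. A larger difference of that sign was found at 1.05%, 2.98% and 3.71% of the probe sets tested. These are the same 3 genes that had the largest changes between temperatures, and both quantities use the same warm signals. AT4G29260 and AT5G51260 differed by 0.95 and 0.51, and AT4G25150 and AT2G38600 by 0.16 and 0.07. Over all probe sets tested, the SD of the B minus A difference was 1.10 at 22 °C and 0.646 at 4 °C. The part of this spread between the warm arrays in the temperature difference was not tested.

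**Figure D3:**
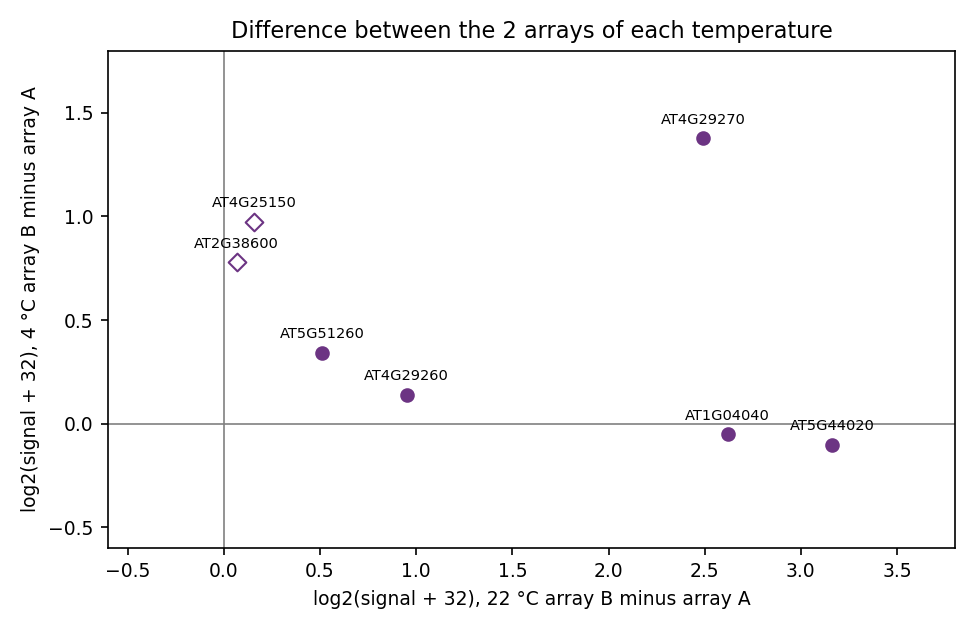
Difference in log2(signal + 32) between arrays B and A at 22 °C (horizontal axis) and at 4 °C (vertical axis) for the 7 genes, with filled circles for the 5 genes tested and open diamonds for the 2 below the minimum signal. All 7 lie right of 0, AT5G44020 farthest at 3.16, and AT4G29270 is the gene with differences over 1 at both temperatures.

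Genes with profiles like those of AT5G44020 and AT1G04040 were ranked by the Euclidean distance between centred log2 profiles over the 4 arrays, among 8624 other genes. The nearest gene to AT5G44020 was AT1G04040, at a distance of 0.461 log2 units. Both were chosen for their low signals at 4 °C on these arrays, so their likeness is no separate finding. AT1G04040 ranked 3rd with a pseudocount of 100 and 8th with a pseudocount of 0. Outside the family, the 5 nearest to AT5G44020 were AT1G62480 (0.503), AT3G16370 (0.504), MSRB9 (0.647), AT2G30930 (0.658) and AT1G29670 (0.846). AT3G16370 and AT1G29670 encode GDSL-type lipases or esterases, and MSRB9 encodes a methionine sulfoxide reductase, which repairs oxidised methionine.

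The profile of AT1G04040 was closest to that of AT3G16370, at a distance of 0.0701. AT3G16370 had signals of 1523 on warm A, 9325 on warm B, 71.0 on cold A and 62.8 on cold B. It shares with AT1G04040 the order warm B, warm A, cold A, cold B from high to low. The cold signals of AT1G04040 (11.8 and 10.3) lie under the pseudocount of 32, and those of AT3G16370 above it. In plain signal, warm A was 55.9 times cold A and warm B 411 times cold B for AT1G04040. For AT3G16370 these factors were 21.4 and 148. The small distance thus depends on the pseudocount, and other pseudocounts were not tried for it. The other 4 of the 5 nearest genes outside the family were AT1G29670 (0.412), AT2G45180 (0.546), AT1G12080 (0.547) and MSRB9 (0.583). AT5G44020 itself ranked 3rd. AT4G29270 ranked 134th by likeness to AT5G44020 and 138th by likeness to AT1G04040, while AT4G29260 ranked 3069th and 3187th. These profiles hold 4 points each, and the likeness rests on the same arrays as the values above.

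**Figure D4:**
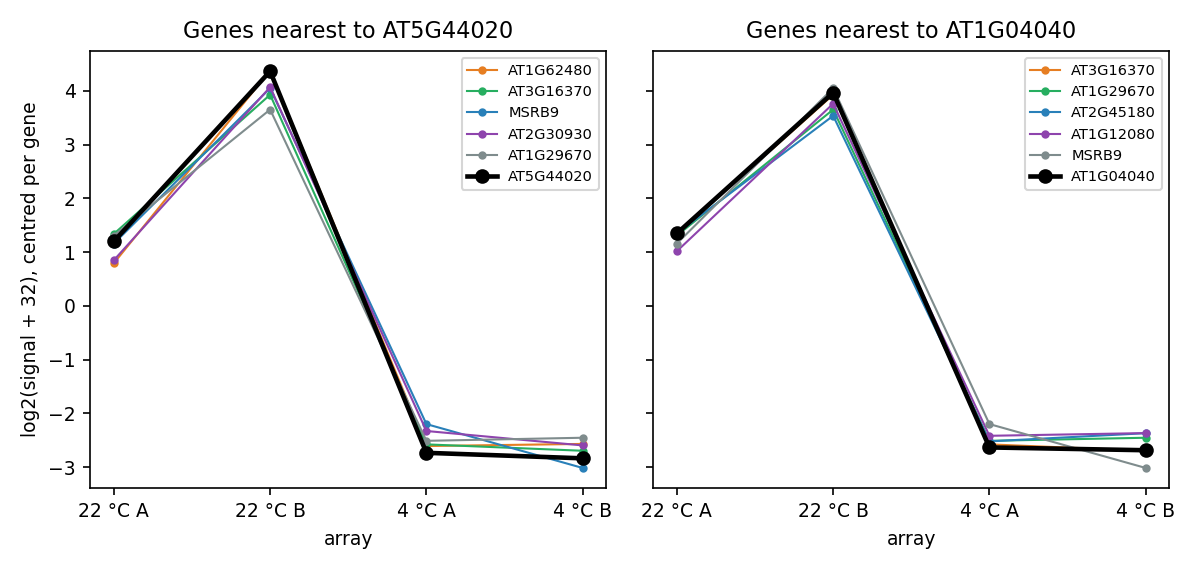
Centred log2(signal + 32) on the 4 arrays for AT5G44020 (left, black) and AT1G04040 (right, black), each with the 5 nearest genes outside the family in colour. All profiles are highest on warm B, intermediate on warm A and low on both 4 °C arrays. AT3G16370 lies almost on AT1G04040, at a distance of 0.0701, with a pseudocount that compresses the weaker cold signals of AT1G04040.

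Other HAD hydrolases, outside the 9 loci, served as the first comparison list. Of 22 listed loci 15 were measured and tested, of which 1 fell, 0 rose and 14 did not pass in the limma test; at an unadjusted p under 0.05, 5 were lower and 0 higher. AT2G32150, a HAD hydrolase, fell by 5.21 (SE 1.10; limma adjusted p = 0.0443), with signals of 612.4 on warm A, 8478 on warm B, 7.37 on cold A and 69.6 on cold B. As in AT5G44020, warm array B was far above warm array A. Its change was -3.35 without warm B, and the call was lost without cold A (adjusted p = 0.218), without cold B (adjusted p = 0.135) and with a pseudocount of 100 (0.0755). The list's median log2 change was 0.38, with 5 genes whose cold arrays both lay below the warm ones, 6 with both above and 4 that overlapped, which is 5 and 6 of 15 genes beside the 28.9% and 21.9% of all probe sets. AT2G39920, picked out after its values were seen because it is annotated to the same subfamily of acid phosphatases, had signals of 43.2 on warm A, 179.1 on warm B, 182.9 on cold A and 163.3 on cold B, and did not pass (log2 change 0.70, limma adjusted p = 0.504). Its change was -0.04 without warm A and 1.45 without warm B (adjusted p = 0.0232).

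Purple acid phosphatases are a separate family of metal-dependent enzymes with the same activity, several of which serve phosphate recovery. Of 29 loci 3 were measured, with a median log2 change of -0.33, and 2 tested. In the limma test 0 passed, and 1 did at an unadjusted p under 0.05. AT1G25230, the member with the largest change, had signals of 418.8 on warm A, 5377 on warm B, 74.9 on cold A and 77.9 on cold B. Its log2 change was -3.85 ± 1.01 (SE; limma adjusted p = 0.0689). Without warm A it was -5.64, and -2.06 without warm B. Without cold A or cold B it was -3.83 or -3.87. AT1G25230 passed the limma test with a filter at 200 (0.0338), a pseudocount of 0 (0.0491) and median centring (0.0202). With no filter (0.127), a pseudocount of 100 (0.11) or quantile normalization (0.0701) it did not pass. Genes of the phosphate starvation response and trehalose phosphate phosphatases, which are also HAD enzymes, had no single-gene probe set and were not analysed here.

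Jasmonate genes were listed because VSP1 and VSP2 report on that hormone. Among 25 loci of jasmonate synthesis 3 were measured, with a median log2 change of -0.35. Of the 2 tested with limma, 0 passed, also at an unadjusted p under 0.05. AIM1, a multifunctional protein of peroxisomal beta-oxidation, had signals of 3431 on warm A, 2734 on warm B, 2052 on cold A and 2809 on cold B, which overlap (limma adjusted p = 0.681). Of 21 loci of perception and signalling 2 were measured, with a median log2 change of -0.91, and 1 was tested. That gene, MYC3, a transcription factor that activates jasmonate responses, had 2723 on warm A, 1092 on warm B, 577.3 on cold A and 383.9 on cold B. Both cold values lay below the warm ones, and the log2 change of -1.80 ± 0.57 (SE) did not pass (limma adjusted p = 0.104, unadjusted p under 0.05). The change was -1.16 without warm A, -2.45 without warm B, -2.08 without cold A and -1.53 without cold B. Unlike the acid phosphatases, MYC3 was lower on warm array B than on warm array A.

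Among 12 further loci listed as jasmonate-induced, 4 were measured (median log2 change -1.66), 2 were tested and both fell. They are the jacalin-related lectins JAL34 and JAL33, sugar-binding proteins, and not the defence genes PDF1.2 and THI2.1 of the same list, which were below the minimum signal. PDF1.2 and THI2.1 had log2 changes of 0.60 and 0.50 and overlapped between temperatures, so the median describes none of the 4. JAL34 fell by 4.49 (SE 0.92; limma adjusted p = 0.0422), with signals of 1047 on warm A, 9044 on warm B, 74.2 on cold A and 149.9 on cold B. JAL33 fell by 3.82 (SE 0.85; limma adjusted p = 0.0481), with 371.5 on warm A, 2776 on warm B, 61.7 on cold A and 28.8 on cold B. Both had the higher warm signal on array B. Leaving out either 4 °C array ended both calls (adjusted p from 0.161 to 0.233), and without warm B the changes were -2.96 for JAL34 and -2.42 for JAL33. JAL33 also missed the threshold in eBayes fits with no trend (adjusted p = 0.0542) or with robust estimation (0.0531), and both genes did with a pseudocount of 100.

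**Figure D5:**
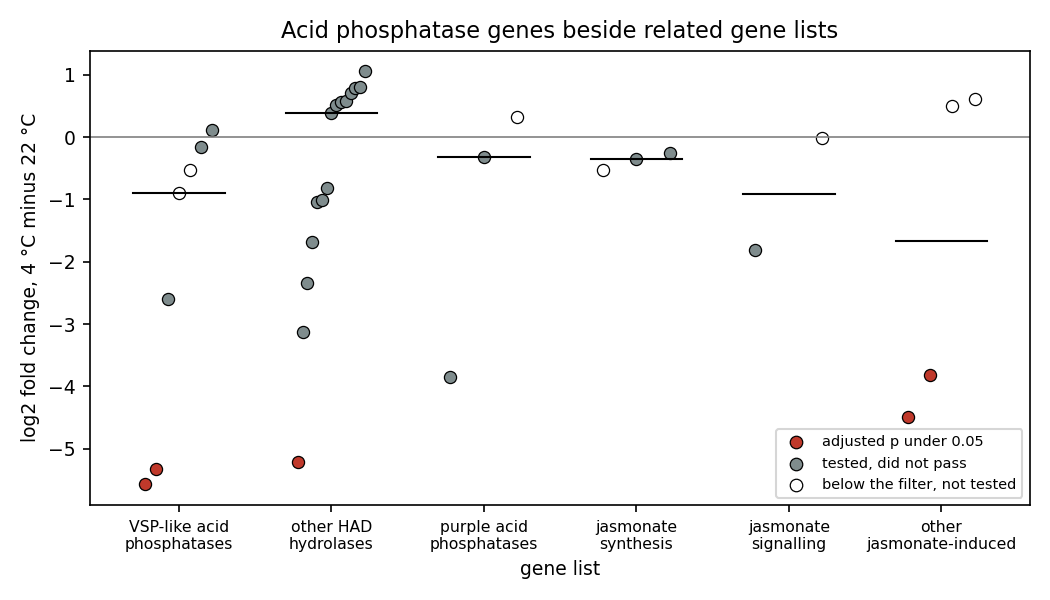
Log2 fold change (4 °C minus 22 °C) of each measured gene in 6 lists, with the list's median as a line. Red points passed an adjusted p of 0.05, grey points were tested and did not pass, and white points were below the minimum signal. AT5G44020 and AT1G04040, which were chosen for this change, lie at -5.57 and -5.32, beside AT2G32150 at -5.21 among the other HAD hydrolases.

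Markers of tissue were read beside the family. Of 18 seed genes (storage proteins, oleosins and late embryogenesis abundant genes) 6 were measured, and the lowest signal among them was 104.4, of AT2G42560 on cold A. Their summed signal was 24800 to 46860 at 22 °C and 17570 to 21440 at 4 °C. Most of the 4 °C sum was M10, with 14070 on cold A and 15990 on cold B, the 1 seed gene higher on both 4 °C arrays. In the limma test 2 fell, AT2G42560 with a log2 change of -5.04 (limma adjusted p = 0.0273) and AT3G22490 with -2.99 (adjusted p = 0.0474). All seed genes except OLEO3 were lower on warm B than on warm A, opposite to the acid phosphatases. Of 15 photosynthesis genes 2 were measured, LHCB4.1 and RCA. Their summed signal was 4491 on warm A, 9070 on warm B, 514.8 on cold A and 517.9 on cold B. LHCB4.1, a light-harvesting protein, had 3717 on warm A, 3835 on warm B, 289.8 on cold A and 214.9 on cold B, so its warm arrays agreed. RCA, which activates Rubisco and was picked out after its values were seen, had 773.9 on warm A, 5235 on warm B, 225.0 on cold A and 303.0 on cold B, so the difference in the sum between the warm arrays came almost wholly from RCA. Its log2 change of -2.81 did not pass (limma adjusted p = 0.0887). RCA passed with a filter at 200 (0.0498) and after median centring (0.0467). With no filter (0.144), a pseudocount of 100 (0.117) or quantile normalization (0.0913) it did not pass. The change of RCA was -4.17 without warm A, -1.46 without warm B, -2.62 without cold A and -3.00 without cold B. Of 5 root and seedling genes PYK10, whose beta-glucosidase fills the ER bodies of seedlings, was measured, with 3970 on warm A, 15560 on warm B, 86.1 on cold A and 131.2 on cold B. LHCB4.1 fell by 3.76 (limma adjusted p = 0.0279) and PYK10 fell by 5.83 (adjusted p = 0.0273). All 4 marker calls were lost without either 4 °C array, and no call named here was kept when no filter was used. AT3G22490 also missed the threshold with no trend (adjusted p = 0.0515) and a pseudocount of 100 (0.0658). LHCB4.1, RCA and PYK10 thus had lower signals on both 4 °C arrays, as AT5G44020 and AT1G04040 did. The same held for 5 of the 6 seed genes, while 1 had both 4 °C arrays above. RCA and PYK10, but not LHCB4.1, also lay far higher on warm B than on warm A. The part of these markers in the result was not tested.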

How the data were processed

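The deposited values are probe set intensities on a linear scale from 4 arrays, for which the submitters' processing notes name MAS5. Its version, background handling and detection calls: not given in the sources used here. The 2% trimmed mean of each deposited column was 100, and columns were rescaled to 500. The 64 control probe sets were left out, and 15847 of 22746 others, with a mean of at least 64, were tested as log2(signal + 32) with limma 3.58.1 in R 4.3.3 (lmFit, eBayes with trend, no covariate, Benjamini-Hochberg over all, threshold 0.05).

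Probe sets were named through the platform annotation and the RefSeq table of TAIR10.1 (13436 single-gene probe sets matched). Gene start positions served only to order genes along the chromosomes. Promoter and protein sequences were not used here, so the planned motif and protein comparisons were not run. The members and lists were chosen with earlier results of these data known. Named genes were all measured members, the 5 nearest profiles, and from each list up to 4 genes past the threshold or else the tested gene with the largest change. Genes named outside this rule were M10, OLEO3, PDF1.2, THI2.1, RCA, AT2G39920 and the genes next to the acid phosphatase loci. Array number limits the precision. On simulated data of 15847 probe sets, the fit called 8 of 150 probe sets planted with a log2 change of 2, 114 with 4 and 148 with 6. It called 127 of 150 planted with -4, and 26 of 46941 unchanged ones. The simulation gave the 4 arrays of a probe set equal spread. The measured SD of B minus A was 1.10 at 22 °C and 0.646 at 4 °C, so these rates may not hold for the real arrays.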

Additional observations from a re-analysis of the deposited data

How the results depend on the processing

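Against 801 probe sets called (430 higher, 371 lower), 226 were called with a pseudocount of 100, 2 with no filter, 1266 with a filter at 200 and 1620 after median centring. Leaving out 1 array gave 1 to 4277, as the spread then came from 1 pair. Of the acid phosphatase genes 2 were called, 0 with no filter or a pseudocount of 100, and 0 to 3 with an array left out. The replicate letter as a block gave 2879 and 3, the third being AT4G29270 (limma adjusted p = 0.00159), and it also called AT1G25230 (0.000412), MYC3 (0.0218) and RCA (0.00241). The labels do not say that letters pair the arrays, and B minus A differences at both temperatures correlated across probe sets with r = 0.209. The changes of AT5G44020 and AT1G04040 kept their sign under all 14 alternatives each. These genes were chosen for that change, so nothing is read from this. The alternatives of the filter, the eBayes fit and the block leave a log2 change as it is. The change of AT4G29260 (-0.17) was 0.147 after median centring and -0.642 to 0.308 with an array left out. That of AT5G51260 (0.11) was 0.42 after median centring, 0.425 after quantile normalization and -0.150 to 0.361 with an array left out. The mean over probe sets of a gene equals the single probe set here. The alternatives for list genes, pairs and profile ranks were chosen after seeing the data. Of the 12 list genes run, 1 changed sign: AT2G39920 (-0.043 to 1.446 with an array left out). Signal near background limits AT4G25150, AT2G38600 and every cold value of AT5G44020 and AT1G04040. Groups of 2 are too small to test for single deviating arrays.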

Other observations

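Genes next to the acid phosphatase loci were examined as values, taking 2 protein-coding genes on each side of all 9 loci in the RefSeq order. Apart from members, 14 such neighbours had a single-gene probe set, 8 were tested and 0 passed the limma test, with 1 at an unadjusted p under 0.05. AT5G24760, which lies beside VSP2, had signals of 125.8 on warm A, 319.2 on warm B, 41.2 on cold A and 13.2 on cold B (log2 change -2.03, limma adjusted p = 0.0876). It was picked out after its values were seen. The measured neighbours of AT5G44020 and AT1G04040, AT5G44010 and AT1G04030, had overlapping temperatures. AT5G44010 had 31.9 on warm A, 21.5 on warm B, 45.7 on cold A and 12.7 on cold B, below the minimum signal. AT1G04030 had 250.1 on warm A, 79.6 on warm B, 182.1 on cold A and 190.2 on cold B, and unlike AT1G04040 was lower on warm array B.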
